A study of Mus musculus with 15 samples.

Results

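Reporter-active cells of 2 differentiation stages, both sorted from mouse embryonic stem cell cultures and both with less Endoglin (Eng) RNA than the ENG+ fractions of the series, were compared by RNA sequencing. The later cells were 3 libraries labelled ENG-/FDG+ HEI, taken from a line whose lacZ reporter construct is labelled -8/P, the Eng promoter (P) with 1 enhancer. The earlier cells were 3 libraries labelled FLK1+/LacZ+, from a line labelled -8/P/+7/+9, the same promoter with 3 enhancers. These 6 libraries, of 15 in the series, were chosen by their labels alone, and replicates 1, 2 and 3 of each group were paired by number. FDG is a substrate that fluoresces when beta-galactosidase, the lacZ product, cleaves it, and FLK1 is the VEGF receptor encoded by Kdr. The 9 libraries left were FLK1+/LacZ- cells of the 3-enhancer line and ENG+/FDG+ and ENG+/FDG- HEI cells of the -8/P line, and they entered the same model. Stage, reporter line and sort gate differed together between the groups, so their parts in any difference cannot be told apart. The labels do not say how many clones stand behind each line, on which days cells were taken, where the sort gates lay, or whether replicates were separate cultures. The p values measure the spread that is left once the replicate number is taken into account, estimated over all 15 libraries. That spread may be technical.

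In the mouse embryo the earliest blood and endothelial cells arise from FLK1+ mesoderm that has left the primitive streak. Blood cells then bud from specialised endothelium that carries endothelial cadherin (Cdh5), TIE2 (Tek) and KIT, and RUNX1 is needed for that step. Gfi1 and Gfi1b act below Runx1 and repress endothelial genes, and surface CD41 (Itga2b) marks the cells that enter the blood lineage. Endoglin is a co-receptor for ligands of the TGF-beta family and is carried by FLK1+ mesoderm and endothelium.

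Levels below are CPM, read counts relative to the TMM-scaled library total in the usual CPM unit, and values of a group are listed for replicates 1, 2 and 3 in that order. Differences are log2 fold changes of ENG-FDG+ HEI over FLK1+ LacZ+ from the edgeR quasi-likelihood fit with the replicate number as a block, given with their standard error (SE) and a Benjamini-Hochberg adjusted p over the 13662 genes tested. The threshold was 0.05. The 6 libraries held 10281133 to 14988239 counts. Replicate 1 stood apart from replicates 2 and 3 in both groups: its log2 CPM correlated with theirs at 0.864 to 0.897, whereas replicates 2 and 3 correlated at 0.987 to 0.989. In the groups compared, replicate 1 also held more counts of the ribosomal RNA gene Rn45s (2.54% to 3.38%, against 0.528% to 0.703% in replicates 2 and 3), and the number of genes with a read spanned 13954 in HEI to 17064 in FLK1+ cells. Genes could thus differ in every pair while the ranges of the groups overlapped. Refitted without replicate 1 of any group, 7413 genes passed, against 5676 with it. Fitted differences of genes with almost no count in 1 group depend on the prior count, so their levels are given instead or beside them.

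Eng RNA was first set against the labels. It stood at 161, 39.4 and 45.1 CPM in ENG-FDG+ HEI and at 85.2, 23.9 and 20.5 CPM in FLK1+ LacZ+ cells. Replicate 1 was the highest in both groups, the ranges overlapped, and the HEI library was the higher of each of the 3 pairs. The log2 difference was 0.92 ± 0.25 (adjusted p 0.0103). Without the replicate block it was not called (adjusted p 0.588). The ENG+ HEI fractions averaged 424 and 454 CPM, and ENG-FDG+ HEI lay below them by 2.31 ± 0.23 on the log2 scale (adjusted p 5.81e-05), in the direction of the labels. Kdr did not differ detectably, with 404, 671 and 640 CPM in HEI and 324, 647 and 510 CPM in FLK1+ cells (log2 difference 0.23 ± 0.16, adjusted p 0.268). The lacZ transcript itself was not analysed here.

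The stretch before the start of Eng, the gene whose promoter drove both reporters, is shown first of the 6 below; the exact bases in the constructs were not used here. It is followed by both annotated starts of Runx1, both of Gfi1, the blood transcription factor with the largest rise, and the start of Sp5, a Wnt target that fell. Each is the 250 bases before a RefSeq transcription start, 5′ to 3′ on the strand of the gene, in GRCm38.p6, and all 4 genes looked up by symbol were found. Eng and Sp5 were chosen after their values were seen. Capitals mark matches, on either strand, to GATAA (GATA factors), TGTGGT (RUNX), AGGAAG (ETS) and CTTTGA (TCF/LEF), and no matches overlapped.
Eng (chr2:32646345-32646594, plus strand): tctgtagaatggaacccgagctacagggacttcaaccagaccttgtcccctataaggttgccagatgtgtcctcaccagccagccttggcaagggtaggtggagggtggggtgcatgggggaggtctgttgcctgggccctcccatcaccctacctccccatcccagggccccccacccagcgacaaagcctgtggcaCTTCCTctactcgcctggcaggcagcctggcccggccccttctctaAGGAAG
Runx1, distal start (chr16:92826075-92826324, minus strand): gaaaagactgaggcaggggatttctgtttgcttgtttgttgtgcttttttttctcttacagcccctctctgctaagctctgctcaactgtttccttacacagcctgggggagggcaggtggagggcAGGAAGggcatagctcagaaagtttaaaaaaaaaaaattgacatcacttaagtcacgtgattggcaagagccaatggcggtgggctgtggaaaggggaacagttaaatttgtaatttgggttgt
Runx1, proximal start (chr16:92697330-92697579, minus strand): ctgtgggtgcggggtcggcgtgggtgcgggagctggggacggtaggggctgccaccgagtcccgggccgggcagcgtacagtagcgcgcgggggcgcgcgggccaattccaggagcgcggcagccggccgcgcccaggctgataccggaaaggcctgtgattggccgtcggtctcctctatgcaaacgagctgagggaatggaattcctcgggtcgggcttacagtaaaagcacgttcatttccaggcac
Gfi1, upstream start (chr5:107725806-107726055, minus strand): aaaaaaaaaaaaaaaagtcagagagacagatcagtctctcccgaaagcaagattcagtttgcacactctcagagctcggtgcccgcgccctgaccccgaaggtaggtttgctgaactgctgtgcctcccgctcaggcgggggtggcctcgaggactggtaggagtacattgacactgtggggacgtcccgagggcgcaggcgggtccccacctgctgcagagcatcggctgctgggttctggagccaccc
Gfi1, downstream start (chr5:107724344-107724593, minus strand): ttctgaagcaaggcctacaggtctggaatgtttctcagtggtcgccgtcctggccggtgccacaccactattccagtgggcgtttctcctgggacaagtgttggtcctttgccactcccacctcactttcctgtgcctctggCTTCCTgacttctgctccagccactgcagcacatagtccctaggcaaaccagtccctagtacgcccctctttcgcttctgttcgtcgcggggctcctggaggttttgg
Sp5 (chr2:70474673-70474922, plus strand): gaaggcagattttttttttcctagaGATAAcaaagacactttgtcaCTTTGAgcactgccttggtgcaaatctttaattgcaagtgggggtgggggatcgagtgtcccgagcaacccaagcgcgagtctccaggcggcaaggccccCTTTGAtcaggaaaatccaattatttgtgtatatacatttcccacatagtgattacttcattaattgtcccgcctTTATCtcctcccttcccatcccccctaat
The Eng stretch held 2 ETS matches, 52 and 6 bases before the start, where the first base of the match is counted. The distal Runx1 stretch and the downstream Gfi1 stretch held 1 ETS match each, and the proximal Runx1 and upstream Gfi1 stretches held none of the 4 motifs. Sp5 held 2 TCF/LEF matches, 204 and 104 bases before its start, and 2 GATA matches. Among 32536 distinct RefSeq stretches of the same length, 29.6% held an ETS match, 22.5% a GATA match, 14% a RUNX match and 13.9% a TCF/LEF match, so these matches describe the letters and no binding.

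Between the stages, 5676 of 13662 genes passed the threshold (41.5%), 2682 of them higher (19.6%) and 2994 lower (21.9%) in ENG-FDG+ HEI. Of the genes called, 5491 had the same sign in 3 of 3 pairs, and the median size was 0.99 on the log2 scale. By fitted folds 376 genes fell and 94 rose by 16-fold or more, while at 2-fold or more the counts were 1484 and 1329. With the genes at 0 in a group (91 in HEI, 15 in FLK1+ cells) set at their bounds, 299 fell and 82 rose by 16-fold or more. Among genes with at least 5 CPM in 3 libraries more were higher (2692) than lower (2269), as in replicates 2 and 3 alone (3891 and 3522). The CPM ranges of the groups did not overlap for 3809 genes (27.9%). Without the block the same direction and threshold were met by 1909 genes, all of them among the 5676. In bulk samples such as these, fewer cells that express a gene and less of its RNA per cell cannot be told apart.

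**Figure D1:**
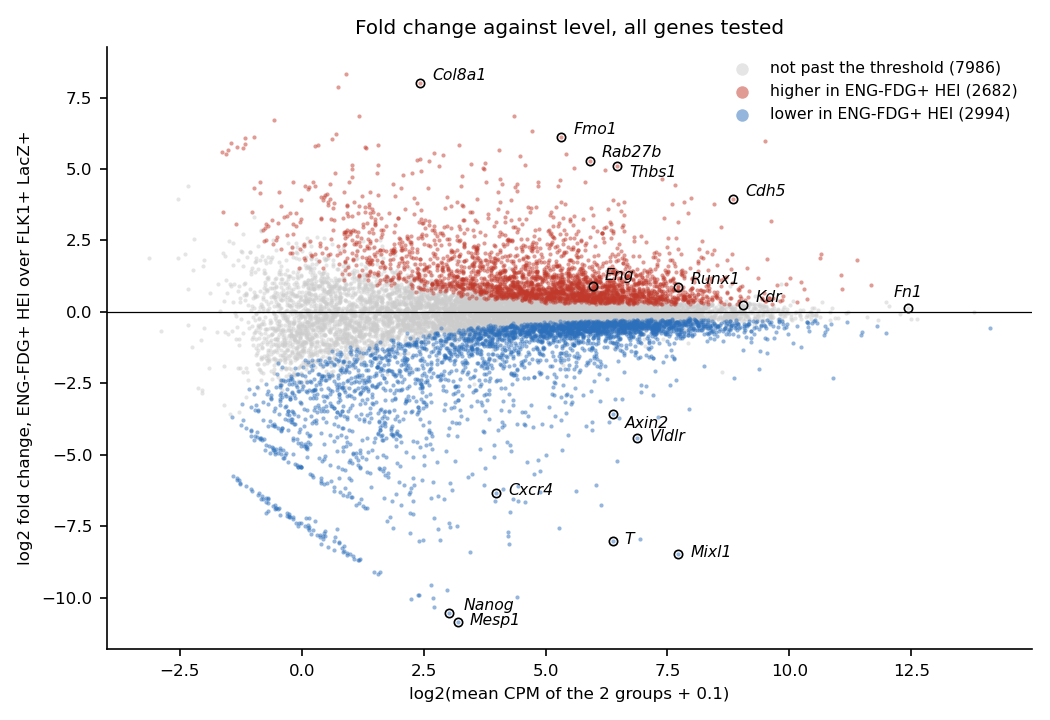
Each point is 1 of the 13662 genes tested, with the log2 of its mean CPM over both groups (plus 0.1) on the x axis and the log2 fold change of ENG-FDG+ HEI over FLK1+ LacZ+ on the y axis. Red and blue mark the 2682 higher and 2994 lower genes, and open circles mark named genes. The slanted bands at the lower left are genes at or near 0 in the HEI libraries, whose fitted fold changes are no bounds.

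The largest rises among genes with a mean of at least 10 CPM in the higher group and no overlap included matrix, contractile and vascular genes. Fmo1, a flavin-containing monooxygenase, stood at 67.9, 84 and 84.7 CPM in HEI and 1.15, 1.1 and 1.03 CPM in FLK1+ cells, a log2 difference of 6.12 ± 0.19 (adjusted p 1.28e-10). Its values were even in both groups, replicate 1 included. Rab27b, a small GTPase of platelet granule transport, stood at 48.4, 175 and 129 CPM against 3, 1.8 and 2.67 CPM (5.28 ± 0.35). Cd200, a surface glycoprotein, rose by 5.44 ± 0.30, Tspan32, a tetraspanin of blood cells, by 5.49 ± 0.47, Aqp1, a water channel of endothelium and red cells, by 5.35 ± 0.63, and Olr1, an oxidised LDL receptor, by 5.55 ± 0.64. The other 6 of the 12 largest rises were Col8a1, Anxa1, Postn, Acta2, Col3a1 and Ankrd1, with fitted log2 differences of 5.66 to 8.00, the highest for Col8a1, a vascular collagen with 0, 0 and 0.103 CPM in FLK1+ cells. In these 6 replicate 1 was the highest HEI library, for instance 85.4, 12.1 and 23.4 CPM of the phospholipid-binding protein Anxa1 against 0.639, 0 and 0.205 CPM.

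The largest falls included genes of the primitive streak, the caudal embryo and pluripotent cells. Grik3, a glutamate receptor subunit, went from 75.9, 27 and 23.6 CPM in FLK1+ cells to 0, 0.0962 and 0 CPM in HEI. Alox15, an arachidonate lipoxygenase, went from 59.1, 30.8 and 22.5 CPM to 0, 0.289 and 0.0852 CPM. Both were among 5 genes with at least 10 CPM in every FLK1+ LacZ+ library and at most 3 counts in every ENG-FDG+ HEI library, with B4galnt4, Crabp1 and Cyp2s1. No gene met the opposite condition. Mesp1, Nanog, Fgf8, Cdx4 and Sp5 had no count in any ENG-FDG+ HEI library. Against the level that 3 counts per library would give, Mesp1 was at least 68.5-fold, Nanog at least 60.2-fold, Fgf8 at least 47.8-fold, Cdx4 at least 39-fold and Sp5 at least 38.3-fold lower in HEI. Replicate 1 of FLK1+ cells set much of 3 of these bounds: without it they were 18.2-fold for Mesp1, 13.3-fold for Sp5 and 3.04-fold for Fgf8, whose FLK1+ values were 36.6, 0.8 and 0.821 CPM. Leaving out a library gave at least 40.5-fold for Nanog and 30.9-fold for Cdx4. The epithelial claudin Cldn6 showed the same split, with 60.5, 3 and 1.64 CPM.

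Endothelial genes rose together. Of 31 listed genes, all tested, 25 were higher, 1 lower and 5 not past the threshold, and the median log2 difference was 1.81, beside -0.0641 over all genes tested. The share called was 83.9%, against 41.5% over all genes. Cdh5, the adherens junction cadherin of endothelium, stood at 841, 876 and 839 CPM in HEI against 123, 27.8 and 37.7 CPM in FLK1+ cells (3.96 ± 0.39, adjusted p 6.67e-06). The HEI libraries lay close together, and all were above the highest FLK1+ library. Pecam1, the platelet and endothelial adhesion molecule CD31, stood at 384, 350 and 335 CPM against 46.4, 12.9 and 23.2 CPM (3.79 ± 0.29). Tek, the angiopoietin receptor TIE2, stood at 259, 554 and 525 CPM against 46.8, 29.7 and 33.9 CPM (3.46 ± 0.30), and its relative Tie1 rose by 3.24 ± 0.40. Lyve1, the hyaluronan receptor of lymphatic and early blood-forming endothelium, rose from 0.192, 0.3 and 0.718 CPM to 18.9, 11.3 and 10.4 CPM, the largest log2 difference of the list at 5.12 ± 0.50. Clec14a, Emcn and Cd93, surface glycoproteins of vessels, rose by 4.40 ± 0.33, 4.07 ± 0.53 and 3.90 ± 0.31.

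Among endothelial transcription factors the ETS genes Erg and Fli1 rose by 2.76 ± 0.30 and 1.39 ± 0.24, and Sox17, a factor of arterial endothelium, by 1.85 ± 0.17. The exception was Etv2, the ETS factor that starts the blood and endothelial programme in mesoderm, which fell from 74.6, 24.1 and 20.2 CPM to 11.2, 5 and 5.45 CPM (-2.30 ± 0.25, adjusted p 6.85e-06). Replicate 1 was the highest in both groups for Etv2, and each HEI library was below its pair. Kdr, Flt4, Cldn5, Sox7 and Stab2 did not pass. Without the replicate block 15 listed genes were higher and none lower, and in replicates 2 and 3 alone 28 were higher and 1 lower.

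**Figure D2:**
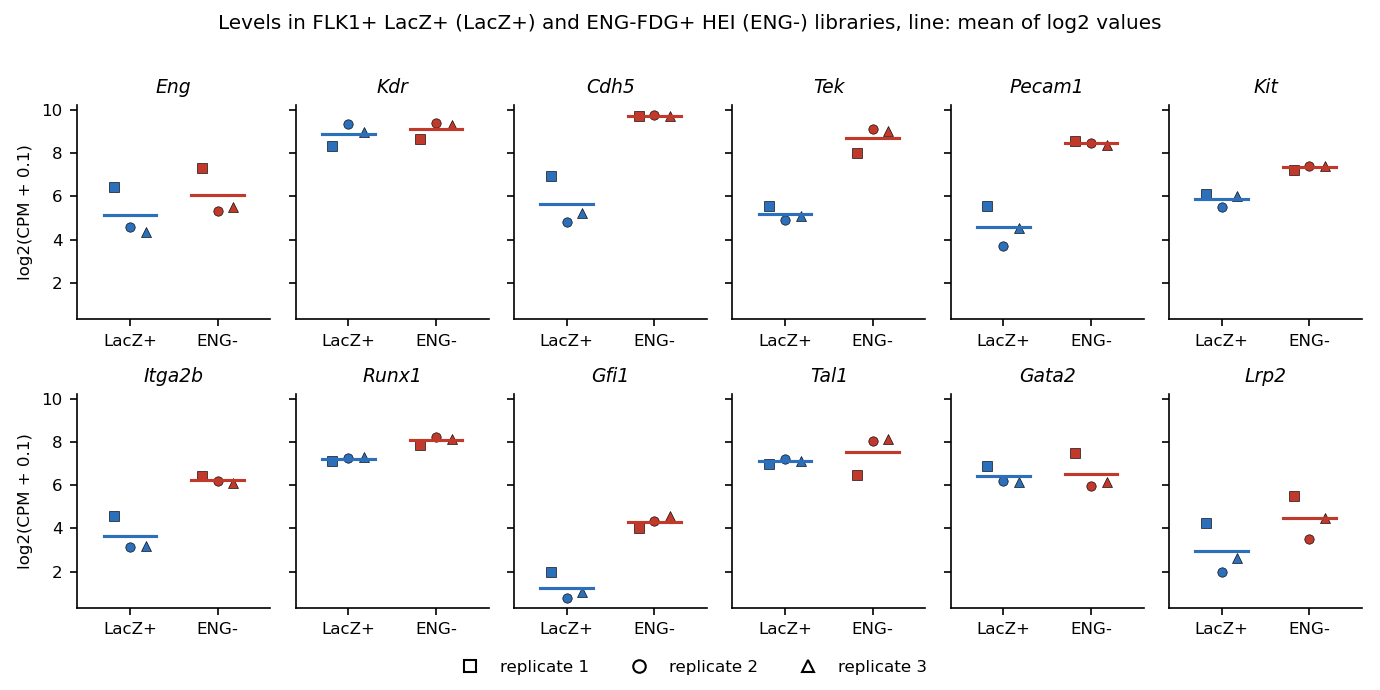
Each point is 1 library, with log2(CPM + 0.1) on the y axis, FLK1+ LacZ+ in blue, ENG-FDG+ HEI in red, and squares, circles and triangles for replicates 1, 2 and 3. Bars are means of the log2 values. Cdh5, Tek, Pecam1, Kit, Itga2b, Runx1 and Gfi1 show no overlap between the groups, while Eng, Kdr, Tal1, Gata2 and Lrp2 overlap.

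Blood transcription factors rose in part, from levels already present in FLK1+ LacZ+ cells. Of 25 listed genes 23 were tested, 13 were higher, 2 lower and 8 not past the threshold, with a median log2 difference of 0.862. The share called was 65.2%, against 41.5% over all genes. Runx1 stood at 138, 152 and 159 CPM in FLK1+ cells and at 234, 302 and 283 CPM in HEI, with no overlap (0.86 ± 0.23, adjusted p 0.00861, and 0.0845 without the block). Cbfb, the partner subunit of RUNX proteins, rose by 0.83 ± 0.10. Gfi1 had the largest rise of the list, from 3.83, 1.6 and 1.95 CPM to 16, 20.1 and 23.9 CPM (2.85 ± 0.48, adjusted p 0.000339), and Gfi1b rose by 1.14 ± 0.36. Mecom and Meis1, factors of blood stem cells, rose by 2.73 ± 0.31 and 2.68 ± 0.26, Lyl1, a relative of Tal1, by 2.23 ± 0.28, and Ikzf2, a zinc finger factor, by 2.10 ± 0.21. Myb, needed for definitive blood formation, rose from 29.4, 19.2 and 28.9 CPM to 60, 119 and 122 CPM (1.73 ± 0.52, adjusted p 0.017).

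The core factors Tal1 and Gata2 did not pass. Tal1 stood at 87.7, 266 and 281 CPM in HEI against 125, 150 and 139 CPM (0.43 ± 0.26, adjusted p 0.198): replicates 2 and 3 were above all FLK1+ libraries and replicate 1 was below them. Gata2 stood at 178, 63.4 and 69.9 CPM against 119, 74.3 and 70.9 CPM (0.14 ± 0.22, adjusted p 0.632). Their adaptor Lmo2 fell by 0.45 ± 0.16 on the log2 scale (adjusted p 0.0345), Ldb1, which joins these factors in a complex, differed by 0.11 ± 0.14, Hhex by -0.12 ± 0.22 and Ikzf1 by -0.15 ± 0.22. In replicates 2 and 3 alone Hhex, a homeobox factor, was higher by 0.40 ± 0.09 (adjusted p 0.00098) and Ikzf1, a lymphoid zinc finger factor, by 0.28 ± 0.10 (adjusted p 0.0278). Runx3, a relative of Runx1, fell from 8.43, 1.7 and 2.05 CPM to 0, 0.192 and 0.0852 CPM.

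Surface receptors of early blood cells rose in part. Of 25 listed genes 17 were tested, 9 were higher and 1, Spn (CD43), was lower. That is a share called of 58.8%, against 41.5% over all genes. Kit, the receptor for stem cell factor, stood at 148, 170 and 170 CPM in HEI against 68.5, 45.8 and 64 CPM in FLK1+ cells (1.42 ± 0.22, adjusted p 0.000192). Itga2b stood at 86.5, 72.2 and 69.6 CPM against 24.1, 8.7 and 8.93 CPM (2.59 ± 0.21, adjusted p 6.38e-07). Neither gene's groups overlapped. Cd34, a sialomucin of progenitors and vessels, rose from 8.3, 2.4 and 3.59 CPM to 201, 117 and 113 CPM (4.96 ± 0.25, adjusted p 2.18e-08). Csf2rb, a shared cytokine receptor chain, rose by 3.72 ± 0.63, Gpr56 (Adgrg1), an adhesion receptor of emerging blood cells, by 3.35 ± 0.38, and the integrin Itga4 by 2.74 ± 0.20. The pan-leukocyte gene Ptprc (CD45) was near 0 in both groups, with 0.509, 0 and 0 CPM in HEI and 0.0639, 0 and 0 CPM in FLK1+ cells.

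Lineage genes rose in part. Of 17 megakaryocyte and platelet genes 8 passed the filter on low counts and 7 of these were higher: Rab27b, Thbs1, F2rl2, Plek, Fermt3, Itgb3 and Gp1ba. The share called was 87.5%, against 41.5% over all genes. This list summed to 863, 444 and 475 CPM in ENG-FDG+ HEI against 71.1, 31.2 and 36.7 CPM in FLK1+ LacZ+ cells. The ENG+ fractions were also above FLK1+ LacZ+ cells, with 438, 164 and 176 CPM in ENG+FDG+ HEI and 443, 231 and 229 CPM in ENG+FDG- HEI. Thbs1, a matrix glycoprotein of platelet granules and vessel walls, stood at 314, 72.4 and 127 CPM against 7.73, 2.9 and 3.59 CPM (5.11 ± 0.21), and Itgb3, the partner of Itga2b, at 306, 61.6 and 69.8 CPM against 31, 7.4 and 9.85 CPM (3.07 ± 0.39). The defining platelet genes Pf4, Gp9 and Ppbp had at most 0.255 CPM in any of the 6 libraries. Of 19 myeloid and leukocyte genes 13 were tested, 8 were higher and 1, Coro1a, lower, a share called of 69.2%. Elane, Prtn3, Ctsg, Tyrobp, Fcer1g and Cybb did not pass the filter on low counts. The myeloid and leukocyte list summed to 628, 414 and 437 CPM in ENG-FDG+ HEI against 104, 59.6 and 62.9 CPM in FLK1+ LacZ+ cells. ENG+FDG- HEI also lay above FLK1+ LacZ+ cells, at 455, 384 and 400 CPM. Against the mean of the ENG+ HEI fractions 6 listed genes were higher in ENG-FDG+ HEI and 1 lower. Arhgdib, a gene of blood cells, went from 16.5, 9.1 and 12.2 CPM in FLK1+ LacZ+ cells to 451, 239 and 276 CPM in ENG-FDG+ HEI (4.66 ± 0.14). Mrc1, a mannose receptor of macrophages and some endothelium, rose by 4.55 ± 0.40 and Laptm5, a lysosomal protein of leukocytes, by 2.18 ± 0.29.

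Among erythroid genes the higher ones included the embryonic globins, and the lower ones were iron uptake genes. Hbb-bh1, an embryonic beta globin, stood at 52.4, 22.8 and 22.6 CPM against 2.75, 0.9 and 0.924 CPM (4.46 ± 0.42). Hba-x and Hbb-y rose by 5.53 ± 0.49 and 4.53 ± 0.49, but with most of their counts in replicate 1, where Hba-x had 242 CPM against 2.5 and 6.22 CPM in replicates 2 and 3. Globin genes are related in sequence, and the split of reads among them was not checked here. The transferrin receptor Tfrc fell from 214, 766 and 899 CPM to 105, 506 and 474 CPM (-0.85 ± 0.11), and Slc25a37, the mitochondrial iron importer, fell by 1.01 ± 0.14 on the log2 scale. Of 17 listed genes 9 were tested, 5 were higher, 2 lower and 2 not past the threshold. The higher genes were not globins alone. The share called was 77.8%, against 41.5% over all genes, and without the block 1 was higher and 1 lower.

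Genes of the primitive streak and newly formed mesoderm were at or near the end of detection in HEI. Of 22 listed genes 20 were tested and all 20 were lower, and their summed level was 9.42, 23.1 and 16.4 CPM in HEI against 1848, 1185 and 760 CPM in FLK1+ cells. The median log2 difference was -6.63, or -5.49 with the 4 genes at 0 in HEI set at their bounds. Over all genes 21.9% were lower. Mixl1, a homeobox gene of streak cells, went from 594, 384 and 280 CPM to 0, 2.98 and 0.682 CPM (-8.46 ± 0.67, adjusted p 1.12e-06). T (Brachyury), the T-box factor of nascent mesoderm, went from 278, 133 and 85.2 CPM to 0, 1.92 and 0 CPM, and Tdgf1, the Nodal co-receptor Cripto, from 251, 325 and 158 CPM to 0, 3.37 and 0 CPM. Eomes, another T-box factor, had 2.29, 6.25 and 4.94 CPM in HEI against 225, 172 and 119 CPM. Lhx1 and the activin antagonist Fst fell by 7.71 ± 0.59 and 6.18 ± 0.51 on the log2 scale. Msgn1, a factor of presomitic mesoderm, fell by 7.99 ± 0.72.

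Pluripotency genes fell in the same direction, with an uneven starting level. Of 20 listed genes 18 were tested, 16 were lower and 1 higher, a share called of 94.4%, against 41.5% over all genes. The list summed to 2189 CPM in replicate 1 of FLK1+ LacZ+ cells against 1159 and 1173 CPM in replicates 2 and 3, and to 533 to 580 CPM in HEI. Pou5f1 (Oct4) had 37.7, 2.4 and 2.16 CPM and the epithelial cadherin Cdh1 169, 9.3 and 10.9 CPM in FLK1+ cells. Dnmt3l, a cofactor of DNA methylation, had 36.6, 0 and 0.308 CPM there and no count in HEI; almost all its counts came from replicate 1. Without replicate 1 of any group 14 listed genes were lower. Nanog was less uneven, with 26.5, 6.5 and 15.1 CPM in FLK1+ cells. L1td1, an RNA-binding protein of pluripotent cells, went from 174, 27.9 and 27.8 CPM to 0.255, 0.481 and 0.256 CPM. The factor Klf4, which endothelium also expresses, was the gene that rose (1.61 ± 0.16).

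**Figure D3:**
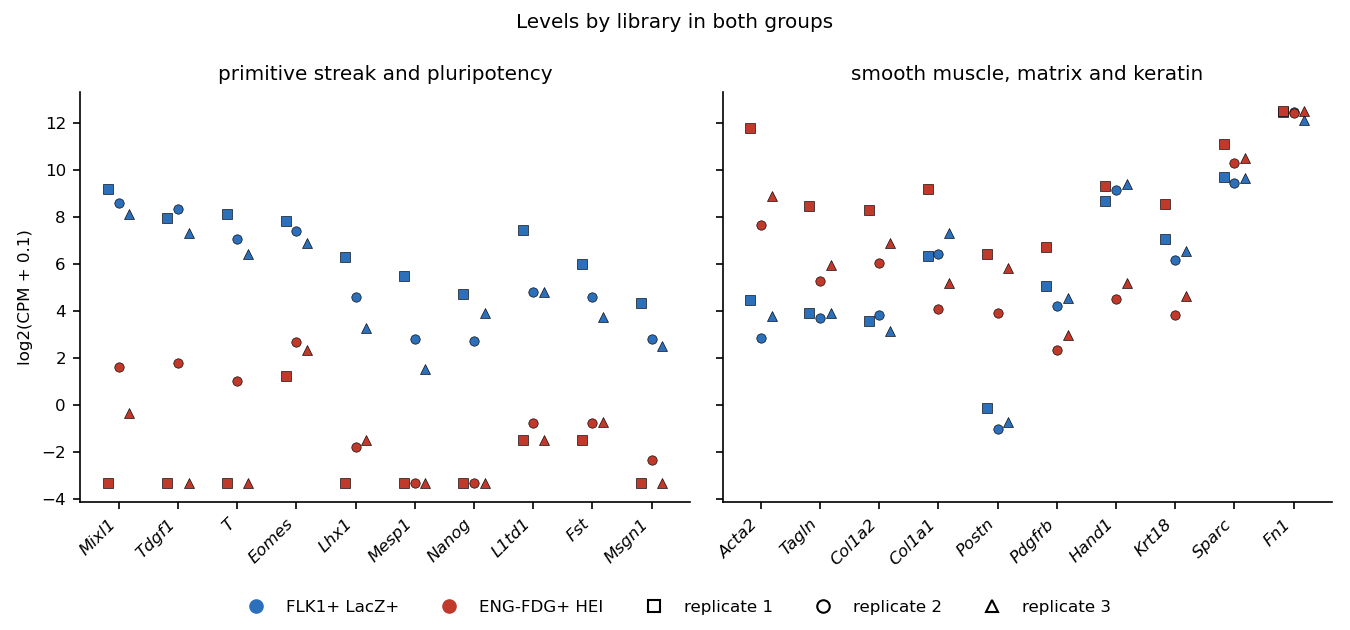
Each point is 1 library, with log2(CPM + 0.1) on the y axis and genes on the x axis, FLK1+ LacZ+ in blue and ENG-FDG+ HEI in red, with squares, circles and triangles for replicates 1, 2 and 3. In the left panel the groups are apart for all 10 genes. In the right panel the red square, replicate 1 of HEI, lies above the other HEI libraries for Acta2, Tagln, Col1a1, Pdgfrb, Hand1 and Krt18.

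Contractile and matrix genes mostly rose, and replicate 1 of HEI stood apart in them. Of 22 listed genes 19 were tested, 11 were higher and 1, Thy1, was lower. That is a share called of 63.2%, against 41.5% over all genes. The list summed to 11171, 3087 and 3929 CPM in HEI and 2077, 1726 and 2154 CPM in FLK1+ cells. Acta2, smooth muscle actin, stood at 3602, 202 and 477 CPM against 22.4, 7.2 and 13.7 CPM (5.99 ± 0.64). Postn, a matrix protein of mesenchyme, stood at 85.4, 15.1 and 56.3 CPM against 0.83, 0.4 and 0.513 CPM (6.32 ± 0.60). Their HEI values were above FLK1+ cells in every library. Col1a1 behaved otherwise: 580 CPM in replicate 1 of HEI and 17 and 36.8 CPM in replicates 2 and 3, against 80.7, 86.1 and 158 CPM (-0.18 ± 0.92, adjusted p 0.895). Pdgfrb, the PDGF receptor of mural cells, had 105, 5 and 7.84 CPM against 33.7, 18.3 and 23.7 CPM and did not pass. In replicates 2 and 3 alone 10 listed genes were higher and 4 lower, and the part of other cell types in replicate 1 was not tested.

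The same library stood apart in mesodermal and cardiac genes. Hand1, a factor of lateral and extraembryonic mesoderm, had 643, 22.5 and 37.1 CPM in HEI and 411, 569 and 672 CPM in FLK1+ cells (-2.12 ± 0.99, adjusted p 0.108), lower in pairs 2 and 3 and higher in pair 1. Pdgfra, a receptor of paraxial mesoderm, fell in every pair, from 46.2, 54.2 and 32.8 CPM to 1.36, 3.65 and 3.66 CPM (-3.95 ± 0.36, adjusted p 1.84e-06). The T-box factor Tbx3 fell by 2.38 ± 0.18 and the progenitor factor Isl1 by 2.29 ± 0.52, both on the log2 scale. Hand2 and Mef2c, factors of both heart and vessels, rose by 1.47 ± 0.18 and 2.84 ± 0.30. In all, 4 of 17 tested mesodermal genes were lower and 2 higher, a share called of 35.3%, below the 41.5% of all genes. Of 18 tested cardiac genes 8 were lower and 2 higher, a share of 55.6%. Without replicate 1 of any group the falls numbered 9 and 10.

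**Figure D4:**
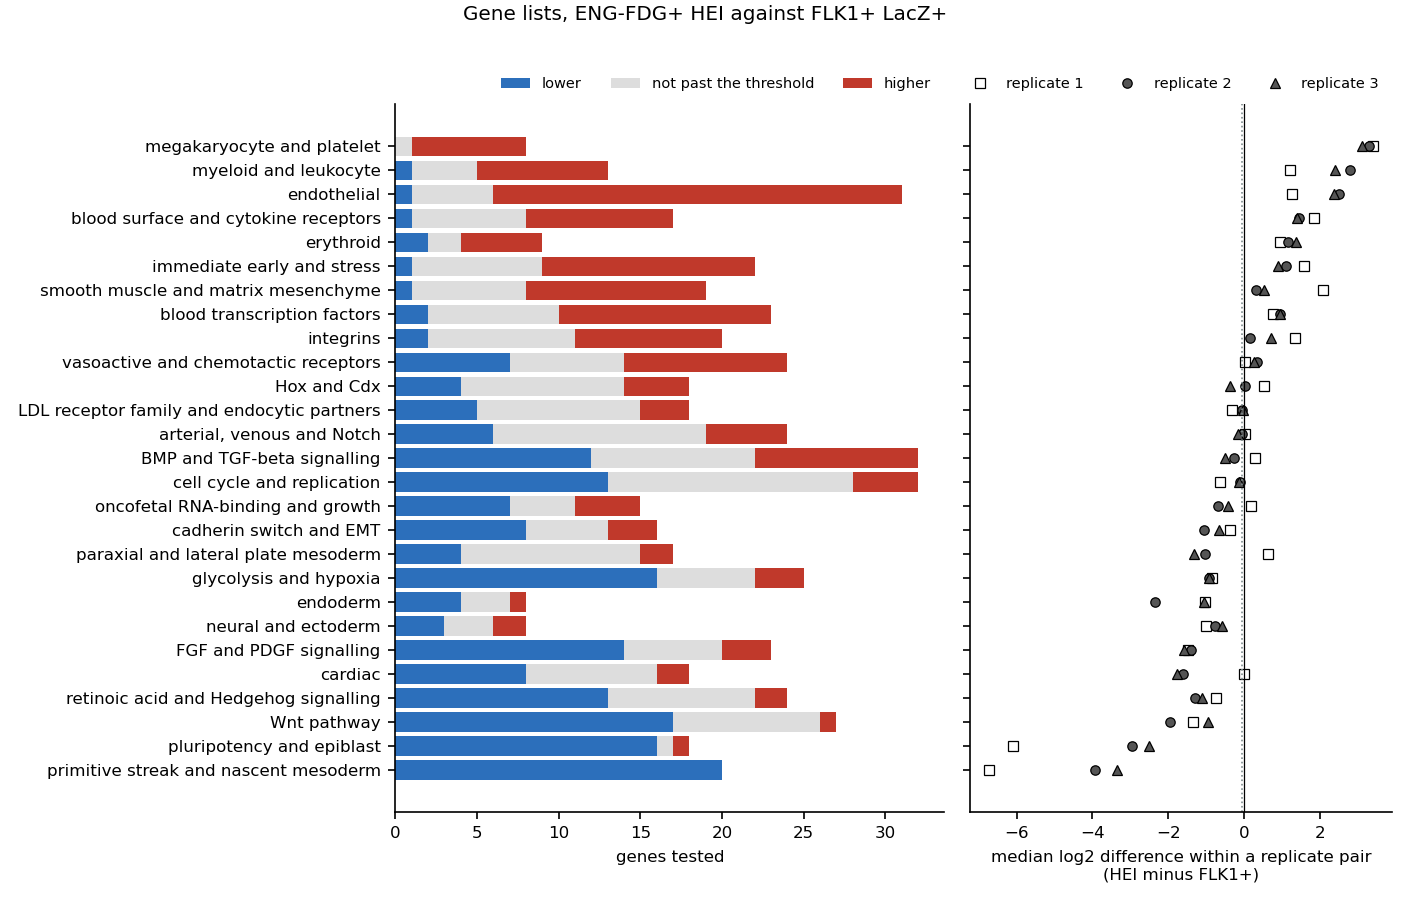
For 27 gene lists in order of median log2 difference, the left panel stacks the number of tested genes that were lower (blue), not past the threshold (grey) and higher (red) in ENG-FDG+ HEI. The right panel shows the median log2 difference within each replicate pair, with the dotted line at the median over all genes tested (-0.0641). Replicate 1 (open squares) departs most from the other pairs in the streak, pluripotency, paraxial mesoderm, cardiac and smooth muscle lists.

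Many Wnt pathway genes were lower. Of 30 listed genes 27 were tested, 17 were lower, 1 higher and 9 not past the threshold. The share called was 66.7%, against 41.5% over all genes. Among ligands, Wnt5b fell by 5.24 ± 0.58, Wnt3 by 3.27 ± 0.37 and Wnt5a by 2.61 ± 0.41 on the log2 scale. Among the factors that read beta-catenin, Lef1 went from 157, 112 and 99.7 CPM to 31, 8.56 and 9.03 CPM (-3.11 ± 0.22) and Tcf7 from 170, 155 and 147 CPM to 36.5, 35.6 and 36.5 CPM (-2.12 ± 0.13), while Tcf7l1 and Tcf7l2 did not pass, nor did the ligands Wnt2 and Wnt4. Targets and feedback inhibitors were lower too. Axin2 went from 175, 150 and 134 CPM to 13.6, 15.5 and 10.2 CPM (-3.56 ± 0.28, adjusted p 7.01e-07), and the secreted inhibitor Dkk1 from 49.4, 32.8 and 23.4 CPM to 0.424, 2.89 and 1.19 CPM. Sp5, whose promoter is printed above, had 23.5, 4.4 and 2.67 CPM in FLK1+ cells and no count in HEI. Ctnnb1, beta-catenin itself, differed by 0.11 ± 0.11 (adjusted p 0.435), and Rspo3, a secreted Wnt agonist, rose by 0.57 ± 0.12.

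In the list of FGF, PDGF and VEGF signalling 14 of 23 tested genes fell and 3 rose, Pdgfa, Pdgfra and Vegfc among the falls. The share called was 73.9%, against 41.5% over all genes. The ligand Fgf15 went from 32.8, 53.5 and 74.1 CPM to 1.27, 1.25 and 0.426 CPM (-5.67 ± 0.48), and the receptor Fgfr2 from 15.8, 73 and 119 CPM to 5.6, 2.98 and 4.17 CPM. Genes that FGF signalling induces were lower too: Etv4 by 4.88 ± 0.62, Etv5 by 4.13 ± 0.36 and Spry4 by 4.04 ± 0.66 on the log2 scale. Fgfr1, Pdgfb and Vegfa were the genes that rose, Pdgfb, an endothelial ligand for mural cells, by 1.80 ± 0.26. The ligand Fgf10 differed by -0.94 ± 0.43 (adjusted p 0.102).

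BMP and TGF-beta genes changed in both directions, 10 higher and 12 lower of 32 tested, and so did the ligands among them. The share called was 68.8%, against 41.5% over all genes. Bmp4 went from 212, 258 and 256 CPM to 105, 29.6 and 54.5 CPM (-2.08 ± 0.29), Bmp5 from 8.69, 38.4 and 41.4 CPM to 0.255, 1.73 and 1.45 CPM, and Bmp7 fell by 6.56 ± 0.54 on the log2 scale. Bmp6 moved the other way, from 12.1, 9.6 and 10.4 CPM to 57.6, 52.5 and 52.5 CPM (2.36 ± 0.22, adjusted p 2.27e-06). Receptors of endothelium rose: Acvrl1 (ALK1), which signals with Endoglin, by 2.21 ± 0.23 and Tgfbr2 by 1.77 ± 0.27. Among targets, Id3 was lower by 0.91 ± 0.12 and Msx2 by 3.70 ± 0.37 on the log2 scale, while Id1 differed by -0.37 ± 0.15 (adjusted p 0.0546) and Smad6 and Smad7 did not pass. For Msx2 the FLK1+ values were 167, 163 and 164 CPM and the HEI values 34.1, 7.31 and 5.71 CPM.

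Retinoic acid and Hedgehog genes were lower in 13 of 24 tested and higher in 2, a share called of 62.5%. The retinoic acid-degrading enzymes Cyp26a1 and Cyp26b1 moved in opposite directions. Cyp26a1 went from 157, 170 and 117 CPM to 5.43, 11.5 and 14.5 CPM (-3.85 ± 0.30). Cyp26b1 rose from 1.15, 2.2 and 1.44 CPM to 3.39, 17.3 and 18.1 CPM (2.77 ± 0.41). In HEI Cyp26a1 was the higher of these in replicate 1 and Cyp26b1 in replicates 2 and 3. Another listed enzyme of this family was lower. The Hedgehog effector Gli2 fell by 3.48 ± 0.38 on the log2 scale. In the Notch and arteriovenous list 5 of 24 tested genes rose and 6 fell, a share called of 45.8%, near the 41.5% of all genes. Notch1 rose by 1.03 ± 0.15 and the arterial connexin Gja4 by 2.69 ± 0.42, while Notch3 fell by 1.08 ± 0.28 and the Notch target Hey1 by 1.45 ± 0.24 on the log2 scale. Hes1 had 86.2, 5.39 and 4.94 CPM in HEI against 52.1, 48.8 and 48.4 CPM and did not pass (adjusted p 0.0531).

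Genes of vasoactive and chemotactic signalling, receptors with their ligands and enzymes, changed in both directions, 10 higher and 7 lower of 24 tested. The share called was 70.8%, against 41.5% over all genes. The adrenomedullin receptor Calcrl stood at 218, 1020 and 743 CPM against 28.8, 34.6 and 55.5 CPM (3.77 ± 0.29). S1pr1, the sphingosine phosphate receptor of endothelium, stood at 115, 130 and 129 CPM against 20.1, 15.9 and 18.6 CPM (2.75 ± 0.15). F2r, the main thrombin receptor, rose from 736, 535 and 608 CPM to 1926, 2972 and 2854 CPM (2.01 ± 0.20), and Edn1, the vasoconstrictor endothelin, by 4.46 ± 0.25. The chemokine receptor Cxcr4 went the other way, from 25.4, 32.6 and 35.4 CPM to 0.509, 0.481 and 0.17 CPM (-6.32 ± 0.38, adjusted p 6.95e-08). Its decoy relative Ackr3 fell by 3.46 ± 0.39 on the log2 scale.

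The study's title names LRP2, an endocytic receptor of the LDL receptor family, so that gene was chosen by the study on these samples. Lrp2 stood at 45.1, 11.3 and 22.1 CPM in ENG-FDG+ HEI and at 19.2, 3.8 and 6.16 CPM in FLK1+ LacZ+ cells. The HEI library was higher in each of the 3 pairs, and the ranges overlapped (1.44 ± 0.43, adjusted p 0.0165, and 0.159 without the block). Of 18 tested genes of the family and its partners 3 were higher and 5 lower, a share called of 44.4%, near the 41.5% of all genes. Vldlr, the very low density lipoprotein receptor, fell furthest, from 135, 288 and 256 CPM to 16, 7.79 and 5.79 CPM (-4.41 ± 0.38, adjusted p 2.26e-06). Dab1, the adaptor that binds its tail, fell by 2.88 ± 0.41 on the log2 scale. Reln, a ligand of the receptor Vldlr, did not pass, with 18.3, 92.5 and 78.7 CPM against 55.7, 76.4 and 83.9 CPM (-0.44 ± 0.30, adjusted p 0.251).

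Glycolytic enzymes were mostly lower. Of 25 genes of glycolysis and hypoxia, all tested, 16 were lower, 3 higher and 6 not past the threshold. The share called was 76%, against 41.5% over all genes. Pkm, pyruvate kinase, went from 1673, 798 and 801 CPM to 524, 302 and 340 CPM (-1.43 ± 0.11), and Ldha, lactate dehydrogenase, from 1548, 1726 and 1743 CPM to 421, 852 and 911 CPM (-1.23 ± 0.18). Aldoc, an aldolase, had the largest fall of the list at 3.90 ± 0.33 on the log2 scale, followed by Pfkl, phosphofructokinase, at 2.34 ± 0.25. The hypoxia factors moved otherwise, with Epas1 (HIF-2 alpha) higher by 2.20 ± 0.18 and Hif1a by 0.36 ± 0.10. Without the block 7 of these 25 genes were lower and 1 higher.

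Cell cycle genes fell in 13 of 32 tested and rose in 4, a share called of 53.1%, against 41.5% over all genes. Ccnd1 (cyclin D1) went from 423, 458 and 527 CPM to 225, 92.7 and 102 CPM (-1.89 ± 0.31), and Ccne1 and Cdk6 fell by 1.69 ± 0.36 and 2.28 ± 0.51 on the log2 scale. Of the listed inhibitors Cdkn1a and Cdkn1c rose by 1.11 ± 0.24 and 2.33 ± 0.41, while the others did not pass. Mki67, a marker of cycling cells, differed by -0.04 ± 0.12 (adjusted p 0.833), and of the replication helicase genes Mcm7 fell by 0.66 ± 0.10 on the log2 scale while Mcm2 to Mcm6 did not pass. Immediate early genes rose in 13 of 22 tested, with Egr2 lower, a share called of 63.6%. Without the block 1 was higher and 1 lower. Fos stood at 171, 70 and 60.9 CPM against 67.9, 8 and 8.42 CPM (2.31 ± 0.54), and Klf2, a flow-responsive endothelial factor, at 170, 31.1 and 30.8 CPM against 17.4, 1.9 and 1.33 CPM (3.77 ± 0.21). Replicate 1 was the highest library of both groups for both genes, and the handling of the cells was not tested.

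Within the -8/P line and the same stage, ENG-FDG+ HEI was set against the mean of the ENG+ HEI fractions, where the line does not differ. That comparison shares its ENG-FDG+ libraries with the one above. In it 1425 genes were higher (10.4%) and 1036 lower (7.58%). Of the 31 endothelial genes 21 were lower and 1, Etv2, was higher. The 31 include Eng, by which these fractions were sorted, and Kdr, which encodes FLK1. The mean of ENG-FDG+ HEI lay between those of FLK1+ LacZ+ and ENG+ HEI cells for 29 of the 31. That count rests on means alone, includes genes not called and was not made over all genes. Cdh5 averaged 1847 and 1968 CPM in the ENG+ fractions (log2 difference -1.08 ± 0.31, adjusted p 0.0309), Clec14a 81.9 and 98.5 CPM (-2.35 ± 0.22) and Edn1 162 and 191 CPM (-2.15 ± 0.17). The 6 largest falls were in Pdlim3, Nr5a2, Ly6a, Clec1a, Robo4 and Mamld1, by 2.65 to 3.45 on the log2 scale. Clec1a, a lectin of endothelium, nonetheless had 1.44, 4.52 and 3.07 CPM in ENG-FDG+ HEI against 0.0639, 0 and 0 CPM in FLK1+ LacZ+ cells. Robo4, a vascular guidance receptor, was higher than in FLK1+ LacZ+ cells by 1.57 ± 0.37.

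Blood transcription factors ran the other way in that comparison, 12 higher and 1 lower of 23 tested. The blood surface and cytokine receptors did not, with 4 higher and 4 lower of 17 tested and a median log2 difference of -0.346. Their summed level was 1117, 807 and 826 CPM in ENG-FDG+ HEI. It was 930, 748 and 743 CPM in ENG+FDG+ HEI and 1025, 768 and 785 CPM in ENG+FDG- HEI. Runx1 averaged 31.2 and 42.1 CPM in the ENG+ fractions, below ENG-FDG+ HEI by 2.94 ± 0.19 on the log2 scale (adjusted p 4.17e-06). Ikzf1 averaged 7.24 and 8.34 CPM there, against 19.1, 55.2 and 55.8 CPM in ENG-FDG+ HEI and 33.8, 46.1 and 50.1 CPM in FLK1+ LacZ+ cells. Myb was among the 6 largest rises (3.58 ± 0.44), with Nrip3, a nuclear receptor interactor (4.65 ± 0.45), Slc7a8, an amino acid transporter (4.14 ± 0.31), Reln (3.83 ± 0.27), Actc1, cardiac actin (3.67 ± 0.52), and Enpp1, a pyrophosphatase (3.58 ± 0.47). Slc7a8 had 42.8, 29.2 and 40.8 CPM in ENG-FDG+ HEI, 37, 27.1 and 22.6 CPM in FLK1+ LacZ+ cells and 1.58 and 2.85 CPM on average in the ENG+ fractions. Slc7a8 differed by 0.37 ± 0.33 between the stages (adjusted p 0.399), within its spread, as Reln and Ikzf1 did above. Lgr5, a receptor for R-spondins, was graded: 62.6, 84.8 and 81.4 CPM in FLK1+ LacZ+ cells, 6.7, 12.7 and 13 CPM in ENG-FDG+ HEI and 1.06 and 1.32 CPM on average in the ENG+ fractions. The call counts of this comparison depended on the block more than those between stages did, with 89 higher and 92 lower without it.

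**Figure D5:**
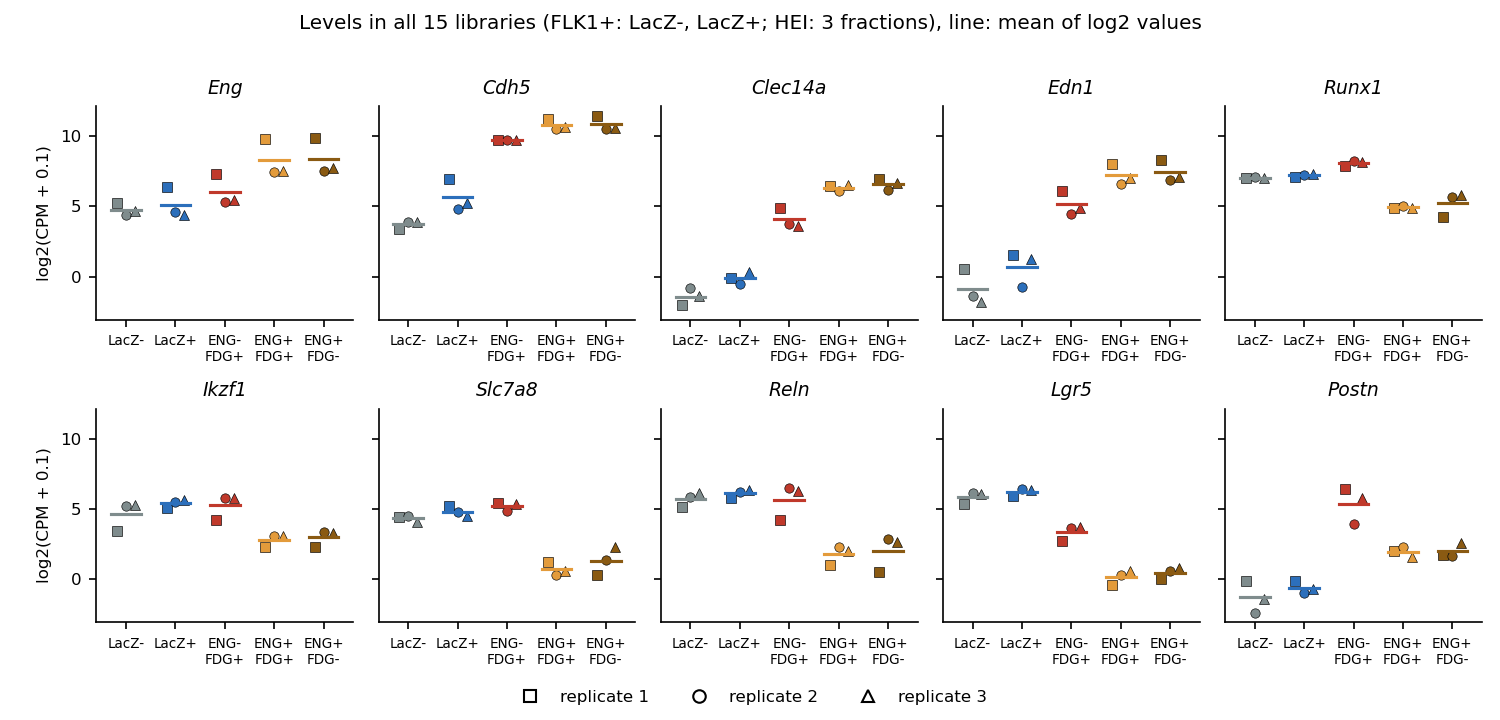
Each point is 1 of the 15 libraries, with log2(CPM + 0.1) on the y axis and the 5 groups on the x axis: FLK1+ LacZ- and LacZ+ cells, then ENG-FDG+, ENG+FDG+ and ENG+FDG- HEI. Squares, circles and triangles are replicates 1, 2 and 3, and bars are means of the log2 values. Cdh5, Clec14a and Edn1 are intermediate in ENG-FDG+ HEI, Runx1 is highest there, and Ikzf1, Slc7a8 and Reln lie near their FLK1+ levels.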

How the data were processed

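RNA of sorted cells was amplified and sequenced on Illumina libraries, per the labels' protocols. The authors deposited 1 table of read counts per gene for 15 libraries, made with STAR 2.4.0, HTSeq 0.6.1 and build mm10, per the submitters' processing notes. Strand is not given in the sources used here. Of 24061 lines, 27 held a date in place of a symbol and were left out (at most 0.3493% of counts). Counts were fitted with edgeR 4.0.16 (R 4.3.3): TMM, filterByExpr, robust quasi-likelihood, 5 groups and the replicate number, 8 residual degrees of freedom, Benjamini-Hochberg threshold 0.05. The numbers were taken as pairs by the rule set for the comparison, since the same numbers stand in the labels of all groups. Same-numbered libraries deviated together (correlations 0.563, 0.472 and 0.432). HEI replicate 2 with FLK1+ replicate 3 (0.46) and HEI 3 with FLK1+ 2 (0.453) were as high. These correlations thus separate replicate 1 and do not tell replicates 2 and 3 apart. DESeq2 1.42.0 was an alternative. Members and gene lists were chosen with earlier results of these data known. Named were the 12 largest rises and falls without overlap at a mean of at least 10 CPM, fixed genes, up to 3 rises and 3 falls per list, switched genes, and the 6 largest rises and falls against ENG+ HEI; 70 other list genes were named after their values were seen, and 1 gene within the rule is not reported here. A count of 0 allows up to 3 counts, which covers counting error only.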

Additional observations from a re-analysis of the deposited data

How the results depend on the processing

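The counts of genes called between the stages depended most on the replicate block. With no replicate block 1909 genes passed (907 higher, 1002 lower), with only the 6 libraries compared 2392 (1296 higher, 1096 lower), and against a fold of 1.5 2470 (1242 higher, 1228 lower). Leaving out 1 library gave 4715 to 5715 genes, 2201 to 2646 higher and 2485 to 3069 lower. Against ENG+ HEI, 181 passed without the block (89 higher, 92 lower), 368 against a fold of 1.5 (167 higher, 201 lower) and 4615 once replicate 1 of all groups was left out (2353 up and 2262 down), while leaving out 1 library gave 1681 to 2208, with 914 to 1159 higher and 767 to 1154 lower. Among those, 923 were higher without ENG+FDG+ replicate 2 and 914 without replicate 3. Eng kept its log2 difference of 0.92 but missed the threshold without the block (adjusted p 0.588) and against a fold of 1.5 (adjusted p 0.143), and leaving out 1 library gave 0.82 to 1.01. Members of the gene lists called fell from 330 to 180 without the block and ranged from 306 to 343 with 1 library left out. Of 187 genes past the threshold that the rule or the text names 57 lost the call without the block, 25 against a fold of 1.5 and 26 of 185 with only the 6 libraries, and none changed sign under any alternative run. Without the block higher and lower counts were 7 and 1 for blood factors, 1 and 1 for erythroid genes, 2 and 6 for BMP genes, 1 and 4 for Notch genes, 0 and 3 for LDL receptor genes, 0 and 9 for FGF and PDGF genes, 2 and 5 for retinoic acid and Hedgehog genes, 0 and 4 for cell cycle genes, 0 and 11 for pluripotency genes and 1 and 2 for oncofetal genes. Of named genes not past the threshold, without the block Col1a1 was at 0.97, Pdgfrb at 0.64, Krt18 at 0.44 and Ikzf1 at 0.00. In replicates 2 and 3 alone Nr5a2 was at 1.69, Hhex at 0.40, Ikzf1 at 0.28, Cldn5 at 0.22, Reln at 0.17, Mcm2 at 0.15, Gata2 at -0.05, Smad6 at -0.08, Ly6a at -0.13 and Tcf7l1 at -0.29. With no filter on low counts Mki67 was at 0.03. With 1 library left out at a time the log2 difference ran from -1.91 to 0.60 for Col1a1, -1.60 to 0.42 for Pdgfrb, -1.48 to 1.10 for Nr5a2, -0.33 to 0.16 for Hhex, -0.31 to 0.14 for Ikzf1, -0.31 to 0.05 for Mcm2, -0.13 to 0.03 for Mki67, -0.15 to 0.29 for Gata2, -0.04 to 0.39 for Smad6, -0.85 to 0.07 for Smad7, -0.58 to 0.49 for Tcf7l1 and -0.12 to 0.24 for Ldb1. The cause of these changes was not tested. Fold counts at the bounds, and bounds without 1 library, were added after seeing the data. DESeq2, other size factors and other filters left the counts over all genes and over the lists together within 1.5 times. Counts of single lists could move more: DESeq2 called 2 myeloid and leukocyte genes lower, against 1. At the depth of these libraries 3 counts correspond to 0.2 to 0.292 CPM, below which differences were not detectable.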

Other observations

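More integrin genes rose than fell between the stages, while Hox and Cdx genes were called at a share near that of all genes. Of 18 tested Hox and Cdx genes 4 were higher and 4 lower (44.4%, against 41.5% over all genes). Hoxb4, a homeobox gene of blood progenitors, stood at 15.4, 16 and 12.9 CPM in ENG-FDG+ HEI and 2.11, 4.8 and 8.01 CPM in FLK1+ LacZ+ cells (1.78 ± 0.39), whereas Hoxb1, an anterior homeobox gene, stood at 0, 0.0962 and 0 CPM and 4.41, 14.1 and 12.3 CPM. Of 20 tested integrin genes 9 were higher and 2 lower (55%, against 41.5% over all genes). In replicates 2 and 3 alone 9 were higher and 5 lower, and without the block 6 and 0. Itga5, the fibronectin receptor subunit, rose by 0.67 ± 0.10, and Itga9 fell by 1.16 ± 0.31 on the log2 scale.

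Of 15 oncofetal and growth genes 4 were higher and 7 lower, a share called of 73.3%, against 41.5% over all genes. The RNA-binding proteins Lin28a and Lin28b moved apart, with Lin28a at 279, 356 and 348 CPM against 385, 576 and 624 CPM and Lin28b at 137, 777 and 715 CPM against 121, 369 and 421 CPM. Igf2, an imprinted growth factor, rose by 0.80 ± 0.26. Of 16 genes of the cadherin switch 3 were higher and 8 lower (68.8% called), with N-cadherin (Cdh2) at 116, 109 and 113 CPM against 180, 333 and 251 CPM (-1.13 ± 0.15). Of 8 tested endoderm genes 1 was higher and 4 lower, and the list summed to 739, 46.8 and 81.8 CPM in HEI against 400, 187 and 239 CPM in FLK1+ cells, so that replicate 1 of HEI was above its pair and the others below. Of 8 tested neural genes 2 were higher and 3 lower. The share called was 62.5% in the endoderm list and in the neural list.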
